A study of Sus scrofa with 35 samples.

Results

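TFAM, the factor that packages mitochondrial DNA and starts its transcription, was described here together with 9 nuclear genes that copy, transcribe or maintain that DNA, across stem cells and embryos of the pig. The 10 genes (TFAM, TFB1M, TFB2M, POLRMT, POLG, POLG2, SSBP1, MTERF3, TEFM and LONP1) were taken by symbol from 4 deposited expression tables, which together name 14673 genes. All 10 were listed in each of the 3 stem cell tables and 8 were listed in the embryo table. POLRMT and POLG had no row there and were not analysed in embryos; the lowest gene mean in that table was 1.00 TPM. The set was chosen by the TPM of TFAM in the embryos, which is sharply lower where OTX2 was overexpressed, so every value from the embryo comparison is a description and carries no test.

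The stem cells are pig expanded potential stem cells (pEPSCs), a cultured embryonic cell type. The 12 pEPSC libraries comprise OTX2 overexpression (pEPSC OTX2 OE), OTX2 knockout (pEPSC OTX2 KO), LEUTX overexpression (pEPSC LEUTX OE) and wild type (pEPSC WT), with 3 libraries in each. The 6 libraries of 4-cell embryos comprise OTX2 overexpression (4C OTX2 OE) and wild type (4C WT), again with 3 libraries in each, and each was made by a Smart-seq2 type protocol from 10 embryos without zona, per the labels' protocols. OTX2 is a homeobox factor of the epiblast and forebrain, and LEUTX is a homeobox factor of the cleaving embryo. How either gene was delivered, which part of OTX2 was edited, whether a line is a single clone, and whether replicate libraries stem from separate cultures or animals are not given in the sources used here, so p-values measure only the spread between these libraries. All 3 pEPSC comparisons share the same wild-type libraries.

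Mitochondria carry their own small circular genome, which encodes core subunits of the respiratory chain and the RNAs needed to translate them, while every protein that copies or transcribes it is made from nuclear genes. TFAM bends and coats the DNA and recruits POLRMT, the mitochondrial RNA polymerase, which melts the promoter with TFB2M; TEFM then keeps the polymerase elongating, and MTERF3 is known from mice as a repressor of this transcription. POLG with its accessory subunit POLG2 copies the DNA while SSBP1 coats the single strand, TFB1M methylates the small ribosomal RNA of the mitochondrial ribosome, and the matrix protease LONP1 is known in human cells to degrade TFAM that is not bound to DNA. Oocytes hold many copies of this genome, and in the mouse it is hardly replicated during cleavage.

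The genes are spread over the genome. In RefSeq's annotation of Sscrofa11.1, the build named in the submitters' processing notes, TFAM (gene 397279) lies at chr14:92261713-92279731, TFB1M (gene 100147809) at chr1:11566193-11650656 and TFB2M (gene 102161798) at chr10:19028813-19046343. POLRMT (gene 110259379) at chr2:77694271-77708099 and LONP1 (gene 100511917) at chr2:73266310-73286774 share a chromosome, as do POLG2 (gene 110255987) at chr12:14582075-14601576 and TEFM (gene 100522515) at chr12:42864582-42875705. POLG (gene 100157469) lies at chr7:54889150-54907167, SSBP1 (gene 100512994) at chr18:8084292-8167983 and MTERF3 (gene 100152384) at chr4:40376146-40399614. No sequence of these genes was used here.

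Values are the authors' TPM, a level per transcript length scaled to the same total in each library. A log2 fold change is the mean of log2(TPM + 1) in the engineered group minus that in wild type. The read depth behind a TPM value is unknown. OTX2 stood at 8974 to 10819 TPM in pEPSC OTX2 OE libraries and 252 to 260 TPM in pEPSC WT libraries, and at 8276 to 10565 TPM in 4C OTX2 OE libraries and 283 to 327 TPM in 4C WT libraries. It was at 99.5 to 130 TPM in pEPSC OTX2 KO libraries, so the transcript persisted, and at 0.131 to 0.294 TPM in pEPSC LEUTX OE libraries. LEUTX was at 3073 to 3187 TPM in pEPSC LEUTX OE libraries. All 10 pluripotency markers examined were listed in every pEPSC table, and 14 of 16 oocyte and cleavage markers in the embryo table. Pluripotency markers summed to 2781 to 3100 TPM in pEPSC OTX2 OE, 4337 to 7622 TPM in pEPSC OTX2 KO and 3709 to 3807 TPM in pEPSC LEUTX OE, against 5841 to 6304 TPM in pEPSC WT. Oocyte markers summed to 11831 to 12350 TPM in 4C OTX2 OE, against 7535 to 8833 TPM in 4C WT. Fibroblast markers (5 of 10 listed, 4 of 10 in the LEUTX table) summed to 38.7 to 45.2 TPM in pEPSC OTX2 OE, 38.8 to 69.9 TPM in pEPSC OTX2 KO and 3.73 to 6.02 TPM in pEPSC LEUTX OE, against 13.5 to 16.2 TPM in pEPSC WT, with COL3A1, DCN, LUM and PDGFRA listed in none of these tables. Only 1 of the 10 was listed in embryos, at 0.844 to 1.44 TPM in 4C OTX2 OE and 0.843 to 1.01 TPM in 4C WT. Cumulus cell markers (1 to 3 of 8 listed) summed to 13.5 to 14.2 TPM in pEPSC OTX2 OE, 9.23 to 10.6 TPM in pEPSC OTX2 KO and 23.0 to 26.6 TPM in pEPSC LEUTX OE, against 8.55 to 10.8 TPM in pEPSC WT, and to 11.2 to 11.8 TPM in 4C OTX2 OE, against 6.99 to 9.68 TPM in 4C WT. The pEPSC WT sums cover the genes listed for the OTX2 overexpression comparison. These include the fibroblast marker TWIST1 and the cumulus marker PTX3, not listed for LEUTX, and the cumulus marker AMH, not listed for LEUTX or the knockout. The fibroblast and cumulus sums of LEUTX OE, and the cumulus sum of OTX2 KO, thus cover fewer genes than WT. They are not read as differences from it. The part of the marker differences in the results was not tested. Knockout library 1 stood apart from libraries 3 and 4, numbered as in their column names: the median gene differed by 0.41 and 0.40 on the log2 scale between library 1 and the other two, and by 0.11 between libraries 3 and 4.

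In 4-cell embryos TFAM was at 20.4, 2.23 and 1.71 TPM in the 3 OTX2 OE libraries, against 61.7, 115 and 166 TPM in the 3 WT libraries. The groups did not overlap, and both were wide: library 1 was the highest of the OTX2 OE libraries and the lowest of the WT libraries, so the narrowest gap was 20.4 against 61.7 TPM. The means were 8.11 ± 10.6 TPM in 4C OTX2 OE and 114 ± 52.2 TPM in 4C WT (SD, n = 3 each), which puts the overexpressing embryos at 7.09% of wild type. Without OTX2 OE library 1 the mean was 1.97 TPM, or 1.72% of wild type. The log2 fold change was −4.22 with all libraries, −5.17 without OTX2 OE library 1 and −2.32 for that library alone against the wild-type mean. The first 2 of these values rest in part on OTX2 OE libraries 2 and 3, whose levels lay near the 1 TPM added before the log. Among the 8550 genes that passed the filter on low values (at least 1 TPM in at least 3 libraries), 8 had a lower fold change than TFAM. TFAM was chosen for this fall, so its rank describes the choice and is not a result.

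OTX2 OE library 1 lay nearer to wild type for many other genes too. Of the 872 genes whose OTX2 OE libraries all lay below the WT libraries, library 1 was the highest of the 3 OTX2 OE libraries at 450 (51.6%), library 2 at 170 and library 3 at 252. LEUTX showed the same order as TFAM, with 80.8, 13.3 and 12.4 TPM in 4C OTX2 OE libraries and 346, 538 and 631 TPM in 4C WT libraries. In libraries of pooled embryos and of cultured cells alike, fewer cells that express a gene and less RNA per cell cannot be told apart.

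**Figure D1:**
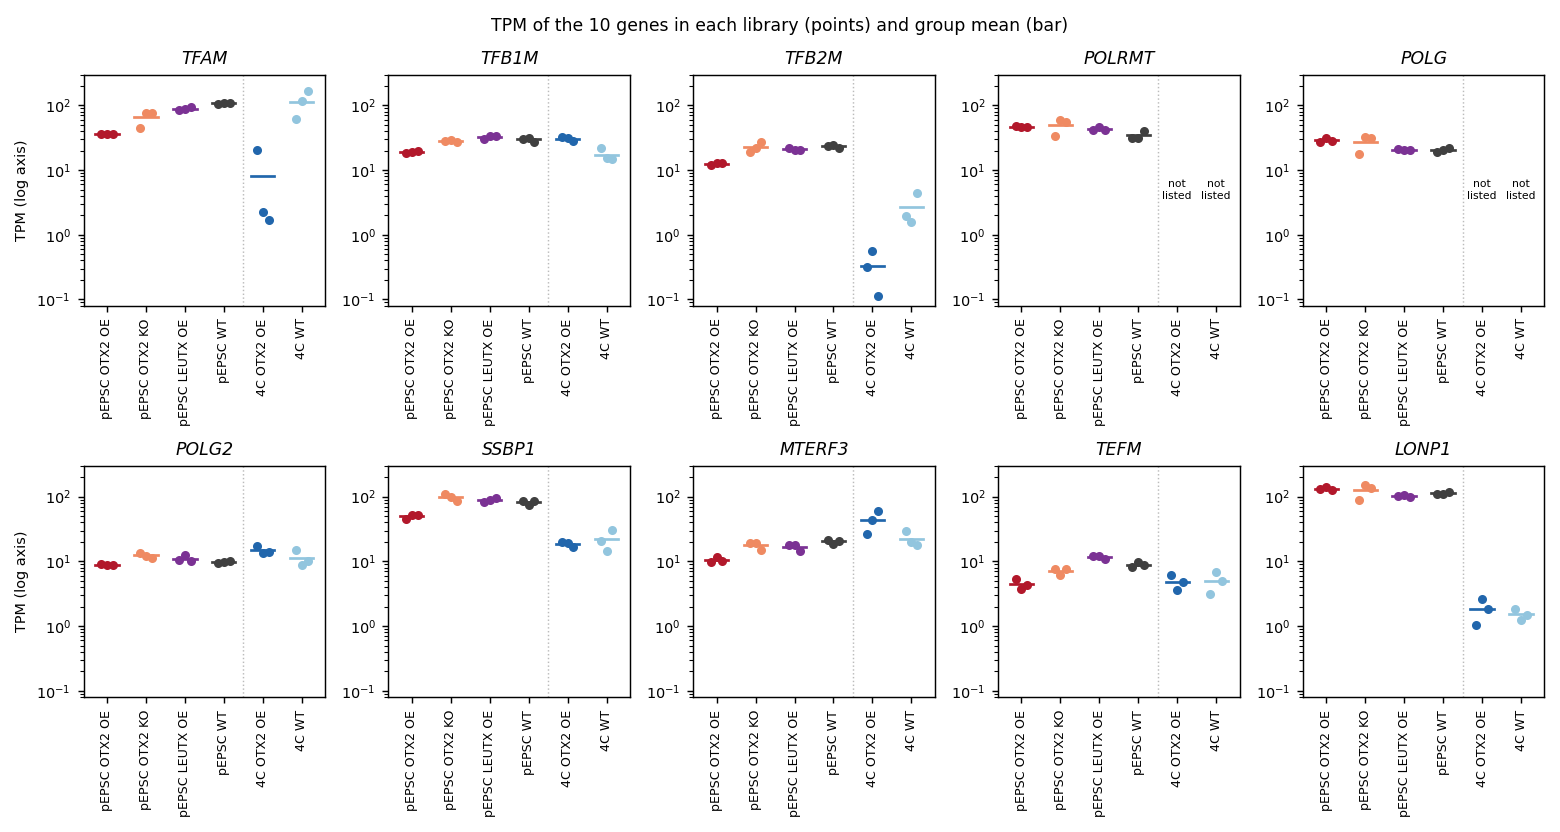
TPM of each of the 10 genes (log axis) in the 4 pEPSC groups and the 2 embryo groups, with 1 point per library, a bar at the group mean and a dotted line between tables that were normalized separately. TFAM is lowest in 4C OTX2 OE embryos (1.71 to 20.4 TPM), and POLRMT and POLG have no row in the embryo table.

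In pEPSCs with OTX2 overexpression TFAM was also lower, at 35.8, 36.5 and 36.4 TPM, against 105, 109 and 109 TPM in pEPSC WT libraries. The libraries of each group lay close together and the groups far apart, and OTX2 OE cells held 33.7% of the wild-type mean. The log2 fold change was −1.54 (SE 0.0542, 95% interval −1.66 to −1.42, limma adjusted p = 3.19e-09), lower in 3 of 3 libraries, and 2.51% of the 13272 genes tested had a lower one.

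In OTX2 knockout pEPSCs TFAM was at 44.2, 75.8 and 77.4 TPM in libraries 1, 3 and 4, against 105 to 109 TPM in pEPSC WT libraries. All 3 knockout libraries lay below wild type, as at 35.3% of all genes, and library 1 lay well below the other two. TFAM fell by 0.74 on the log2 scale (SE 0.214, limma adjusted p = 0.0328), and 13.7% of the 12255 genes tested had a lower fold change. Leaving out any 1 of the 3 wild-type libraries ended this call (adjusted p from 0.0977 to 0.103), while without knockout library 1 the log2 fold change was −0.48 (SE 0.0547, adjusted p = 0.000211).

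With LEUTX overexpression TFAM was at 83.8, 86.8 and 95.1 TPM, against 105 to 109 TPM in pEPSC WT libraries. The groups again did not overlap, and 30.3% of all genes lay wholly below wild type in the same way. The log2 fold change of TFAM was −0.28 (SE 0.0525, limma adjusted p = 0.00121), and its mean was 82.4% of the wild-type mean. Of the 12570 genes tested 22.6% had a lower fold change. One joint fit of the 12 pEPSC libraries ended the TFAM call (adjusted p = 0.193), and the same fit without knockout library 1 kept it (adjusted p = 0.000378).

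The pEPSC groups thus ran in mean TFAM level from OTX2 OE (36.2 ± 0.404 TPM) through OTX2 KO (65.8 ± 18.7) and LEUTX OE (88.6 ± 5.85) to WT (107 ± 2.49; SD, n = 3 each), and no neighbours in this order overlapped. The 4C WT mean of 114 TPM stood above pEPSC WT with overlapping ranges, and the 4C OTX2 OE mean of 8.11 TPM stood below every pEPSC group. The pEPSC and embryo tables were normalized separately and made by different library protocols, so this order across them is a description.

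TFB2M, the transcription initiation factor that works with TFAM, was at 0.319, 0.571 and 0.111 TPM in 4C OTX2 OE libraries and 1.98, 1.58 and 4.40 TPM in 4C WT libraries. Every OTX2 OE library was under 1 TPM and every WT library above it, so the gene passed the filter through wild type alone and had to differ. Its log2 fold change of −1.39 rests on levels near the pseudocount and was −2.68 with a pseudocount of 0.1. In pEPSCs TFB2M was far more abundant. It was at 11.8, 13.1 and 12.8 TPM in OTX2 OE libraries, against 23.3, 24.7 and 21.9 TPM in WT libraries, and fell by 0.84 on the log2 scale (SE 0.0831, limma adjusted p = 4.45e-06). In the other pEPSC lines its range overlapped wild type, at 18.8 to 26.8 TPM in OTX2 KO and 20.3 to 22.3 TPM in LEUTX OE, against 21.9 to 24.7 TPM in WT. The 95% interval of the log2 fold change was −0.43 to 0.32 in the knockout and −0.30 to 0.02 with LEUTX, where median-ratio scaling (adjusted p = 0.0185) and quantile normalization (0.007) each called TFB2M lower.

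TFB1M, the rRNA methyltransferase related to TFB2M, stood on opposite sides of wild type in embryos and pEPSCs with OTX2 overexpression, a difference that was not tested. In 4-cell embryos it was at 32.7, 30.9 and 27.9 TPM in OTX2 OE libraries, against 21.8, 15.3 and 15.05 TPM in WT libraries. In pEPSCs it was at 18.2, 19.4 and 19.5 TPM in OTX2 OE libraries, against 30.8, 31.4 and 27.0 TPM in WT libraries. Neither pair of groups overlapped, and overexpressing embryos stood at 176% of wild type while overexpressing pEPSCs stood at 63.9% (log2 fold change −0.62, SE 0.0816, limma adjusted p = 4.24e-05). In embryos the log2 fold change was 0.80 as deposited and 0.50 under median-ratio scaling. In OTX2 KO and LEUTX OE lines TFB1M, at 27.4 to 29.1 and 30.1 to 33.2 TPM, overlapped the 27.0 to 31.4 TPM of wild type (95% intervals −0.36 to 0.20 and −0.06 to 0.28).

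POLRMT, the RNA polymerase itself, did not follow the fall of TFAM, TFB2M and TEFM in pEPSCs with OTX2 overexpression. It was at 47.3, 46.2 and 46.1 TPM in pEPSC OTX2 OE libraries, against 31.8, 31.3 and 40.4 TPM in pEPSC WT libraries, and rose by 0.43 on the log2 scale (SE 0.0945, limma adjusted p = 0.0016). The median gene of that comparison rose by 0.20, and 59.3% of genes had a lower fold change than POLRMT. Median-ratio scaling moved POLRMT to 0.24 (adjusted p = 0.0137). With LEUTX overexpression it was at 42.3, 46.8 and 41.6 TPM and rose by 0.34 (SE 0.0976, adjusted p = 0.0123), against the same wild-type values. WT library 3 lay close to the engineered lines in both comparisons. The LEUTX call was not made without LEUTX OE library 2 or WT library 1 (0.0517 and 0.0538), nor in the joint fit of 12 libraries (0.136). In the knockout POLRMT was at 33.8 TPM in library 1, inside the wild-type range, and at 59.0 and 55.5 TPM in libraries 3 and 4, so its log2 fold change of 0.48 did not pass (adjusted p = 0.142). Without library 1 it was 0.72 (adjusted p = 0.00102). With all libraries POLRMT passed as higher at 0.59 when scaled by median ratios (adjusted p = 0.0096), at 0.57 after quantile normalization (0.0109) and in the joint fit of 12 libraries (0.0391).

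TEFM, the elongation factor, was the least abundant of the 10 genes in pEPSC WT cells and separated all 4 pEPSC groups. It was at 5.28, 3.72 and 4.32 TPM in OTX2 OE libraries, against 8.25, 9.74 and 8.75 TPM in WT libraries, and fell by 0.87 on the log2 scale (SE 0.123, limma adjusted p = 6.91e-05). With LEUTX overexpression it was at 11.9, 12.01 and 11.05 TPM and rose by 0.36 (SE 0.0861, adjusted p = 0.00494), against the same wild-type values, a call that quantile normalization ended, with an adjusted p of 0.369. In the knockout it was at 7.499, 6.05 and 7.62 TPM, below every wild-type library but with a log2 fold change (−0.30) that did not pass (adjusted p = 0.148). It passed there without knockout library 1 (adjusted p = 0.0462). In embryos TEFM was at 3.55 to 6.17 TPM in OTX2 OE and 3.17 to 6.94 TPM in WT, and the ranges overlapped.

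MTERF3, the transcription repressor, was at 9.89, 11.6 and 10.3 TPM in pEPSC OTX2 OE libraries, against 21.6, 18.5 and 20.8 TPM in pEPSC WT libraries, and fell by 0.88 on the log2 scale (SE 0.0934, limma adjusted p = 7.77e-06). With LEUTX overexpression it was at 17.6, 18.1 and 14.5 TPM, a log2 fold change of −0.27 (adjusted p = 0.0355). That LEUTX call was not made without WT library 1 or 3 or without LEUTX OE library 1 or 3 (adjusted p from 0.0505 to 0.122), with the replicate number as a block (0.0636) or in the joint fit of 12 libraries (0.104). The knockout libraries, at 14.8 to 19.0 TPM, overlapped the 18.5 to 21.6 TPM of wild type. In embryos MTERF3 was at 26.6, 43.7 and 59.4 TPM in OTX2 OE libraries and 29.2, 19.8 and 18.2 TPM in WT libraries. The groups overlapped only through library 1 of each, and without OTX2 OE library 1 the mean was 51.6 TPM, or 230% of wild type.

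Of the replication proteins, SSBP1 had the fold change farthest from 0 with OTX2 overexpression in pEPSCs. It was at 45.7, 52.4 and 52.1 TPM in pEPSC OTX2 OE libraries, against 84.9, 75.0 and 86.5 TPM in pEPSC WT libraries, and fell by 0.70 on the log2 scale (SE 0.0774, limma adjusted p = 1.02e-05). In OTX2 KO and LEUTX OE lines it was at 86.4 to 110 and 82.1 to 95.6 TPM, overlapping the 75.0 to 86.5 TPM of wild type in both, and passed in neither (adjusted p = 0.149 and 0.21). In embryos the OTX2 OE libraries (16.6 to 20.0 TPM) lay inside the range of the WT libraries (14.6 to 30.8 TPM).

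POLG, the catalytic subunit of the mitochondrial DNA polymerase, rose with OTX2 overexpression while its accessory subunit POLG2 did not pass. POLG was at 27.4, 31.3 and 28.0 TPM in pEPSC OTX2 OE libraries, against 19.0, 20.4 and 21.8 TPM in pEPSC WT libraries, a log2 fold change of 0.48 (SE 0.0836, limma adjusted p = 0.000315). Of all genes 61.2% had a lower fold change, with a median of 0.20, and median-ratio scaling moved POLG to 0.30 (adjusted p = 0.00299). In the knockout it was at 17.6 TPM in library 1 and at 33.0 and 31.3 TPM in libraries 3 and 4, and did not pass (log2 fold change 0.35, adjusted p = 0.281); without library 1 it was 0.63 (adjusted p = 0.000529), and with all libraries it passed at 0.47 when scaled by median ratios (0.0307) and at 0.49 after quantile normalization (0.0154). With LEUTX overexpression it was at 20.3 to 21.3 TPM, inside the 19.0 to 21.8 TPM of wild type. POLG2 was at 8.66 to 9.19 TPM in OTX2 OE, 11.2 to 13.5 TPM in OTX2 KO and 10.3 to 12.4 TPM in LEUTX OE, against 9.35 to 10.1 TPM in WT. None of these ranges overlapped wild type, yet no POLG2 fold change passed (adjusted p = 0.212, 0.104 and 0.126). In OTX2 OE, median-ratio scaling put it lower at −0.29 (adjusted p = 0.00601) and quantile normalization at −0.41 (0.000913), both past the threshold, and in the knockout it passed as higher in the joint fit (adjusted p = 0.0246 with all 12 libraries and 0.0321 without knockout library 1). In embryos POLG2 was at 13.5 to 17.1 TPM in OTX2 OE and 8.64 to 14.8 TPM in WT, with overlap through WT library 1.

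LONP1, the protease, was the most abundant of the 10 genes in all 4 pEPSC groups and among the least abundant of the 8 in embryos. It was at 132, 139 and 126 TPM in OTX2 OE libraries, against 111, 109 and 119 TPM in WT libraries, and rose by 0.22 on the log2 scale (SE 0.0571, limma adjusted p = 0.00415). The median gene of that table shifted by about as much (0.20), and median-ratio scaling moved it to 0.03 (adjusted p = 0.58); the joint fit of 12 libraries ended the call as well (0.207). With LEUTX overexpression it was at 101, 105 and 99.0 TPM and fell by 0.15 (SE 0.0465, adjusted p = 0.0161), a call not made without LEUTX OE library 1 or 3 (0.0504 and 0.0605) nor in the joint fit of 12 libraries (0.434). In the knockout it was at 87.8 TPM in library 1 and at 149 and 138 TPM in libraries 3 and 4, on either side of wild type (log2 fold change 0.10, adjusted p = 0.703), and without library 1 it passed as higher (0.34, adjusted p = 0.00244). In embryos it was at 1.04 to 2.58 TPM in OTX2 OE and 1.22 to 1.84 TPM in WT.

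**Figure D2:**
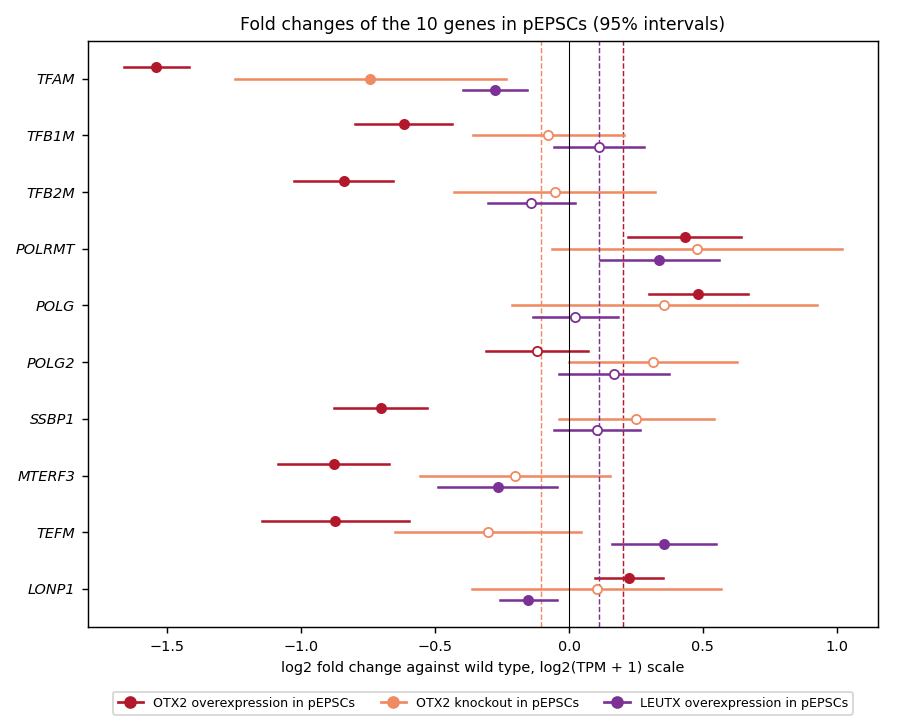
Log2 fold changes of the 10 genes against wild type in the 3 pEPSC comparisons, on the log2(TPM + 1) scale, with 95% limma intervals; filled points passed an adjusted p of 0.05, and dashed lines mark the median of all genes in each comparison (0.20, −0.11 and 0.11). TFAM is the lowest point of each comparison, and the knockout intervals are the widest.

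Counted together, 6 of the 10 genes fell and 3 rose with OTX2 overexpression in pEPSCs, where 33.5% of all tested genes fell and 48.9% rose (82.4% changed). The OTX2 OE and WT ranges did not overlap at any of the 10, with 7 lower and 3 higher, and they were apart at 34.2% of all genes as lower and 49.1% as higher. Their median log2 fold change was −0.66, against 0.20 over all genes. Under median-ratio scaling 7 fell and 2 rose, and under quantile normalization 7 fell and 3 rose. Shares of all genes were computed only as deposited and for the knockout without library 1. Counts under other settings are therefore not compared with all genes. In the OTX2 knockout 1 gene fell and none rose by limma's test with Benjamini-Hochberg adjustment, where 22.3% of all genes fell and 14.9% rose (37.1% changed), with medians of 0.02 for the set and −0.11 for all genes. Without knockout library 1, 2 fell (TFAM and TEFM) and 3 rose (POLRMT, POLG and LONP1), beside 31.4% and 32.1% of all genes (63.5% changed); median-ratio scaling and quantile normalization each gave 1 lower and 2 higher, and with any 1 wild-type library left out no gene passed. With LEUTX overexpression 3 fell and 2 rose, where 28.1% of all genes fell and 41.6% rose (69.7% changed), with medians of 0.06 and 0.11; quantile normalization gave 4 lower and 1 higher. Ranges were apart in the knockout for 2 genes as lower and 1 as higher (35.3% and 20.3% of all genes), and with LEUTX overexpression for 3 each way (30.3% and 43.2% of all genes). In embryos 2 of 8 genes lay wholly below wild type and 1 wholly above, where 10.2% and 38.9% of all genes did so; nothing is read from this, since TFAM chose the set and TFB2M passed the filter through wild type alone. The medians there were 0.06 for the 8 genes and 0.28 for all genes.

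Knockout library 1 lay below libraries 3 and 4 at 5 of the 10 genes. The share of all genes that did so was not computed, so the count is not read as a result about the set. The median gene differed by 0.41 and 0.40 on the log2 scale between library 1 and libraries 3 and 4. In library 1 the TPM of POLG was 54.7%, of TFAM 57.7%, of POLRMT 59.0%, of LONP1 61.2% and of TFB2M 76.5% of the mean of libraries 3 and 4. The other 5 genes stood between 97.9% (TFB1M) and 120% (SSBP1) of that mean. The 13 mRNAs that mitochondrial DNA encodes made up 20.3% of TPM in knockout library 1 and 9.22% and 9.34% in libraries 3 and 4. They made up 8.17% to 9.12% in pEPSC OTX2 OE and 14.8% to 14.9% in pEPSC LEUTX OE, against 13.5% to 14.7% in pEPSC WT, and 41.4% to 44.0% in 4C OTX2 OE, against 46.3% to 46.8% in 4C WT. These shares enter the sum to which every TPM is scaled, and their part in the fold changes was not tested.

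**Figure D3:**
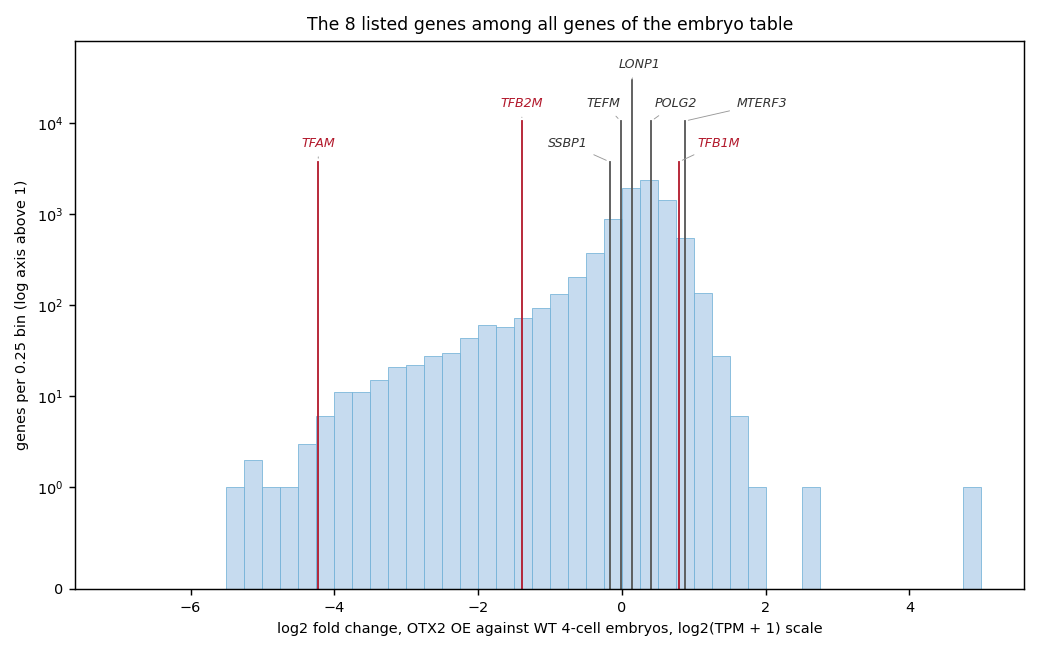
Number of genes (axis linear to 1 and logarithmic above) by log2 fold change of 4C OTX2 OE against 4C WT embryos, in bins of 0.25, for the 8550 genes past the filter; vertical lines mark the 8 listed genes, red where the groups do not overlap. TFAM lies in the far left tail at −4.22, with TFB2M at −1.39, and TFB1M at 0.80 lies right of the median of 0.28.

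The relative order of the 10 genes also differed between the systems. In pEPSC OTX2 OE cells the leading levels were LONP1 (132 TPM), SSBP1 (50.0 TPM) and POLRMT (46.5 TPM), with TFAM ranked 4 of 10, while in pEPSC WT cells they were LONP1 (113 TPM), TFAM (107 TPM) and SSBP1 (82.2 TPM). In 4C OTX2 OE embryos MTERF3 (43.2 TPM) and TFB1M (30.5 TPM) led and TFAM ranked 5 of 8, while in 4C WT embryos TFAM (114 TPM) stood above 92.8% of the genes in its table, followed by MTERF3 (22.4 TPM) and SSBP1 (22.0 TPM). LONP1 at 1.52 TPM in 4C WT embryos stood above 11.8% of listed genes, and at 113 TPM in pEPSC WT cells above 90.1%. No test was made across the separately normalized tables.

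The genes most like TFAM over the 4 comparisons were sought among 7144 others that passed the filter in every table, by the largest absolute difference of log2 fold change from TFAM in any comparison; the 3 pEPSC comparisons share their wild-type libraries. The nearest was RBM7, an RNA-binding subunit of the nuclear exosome adaptor, with a largest difference of 0.69. It was followed by RTN4, a membrane-shaping reticulon (0.79), DENR, a factor of translation reinitiation (0.83), TDG, a thymine DNA glycosylase (0.89), and CDV3 (0.95). These differences exceed the whole fold change of TFAM under LEUTX overexpression (0.28). The search itself fixed a low fold change in embryos, the values that chose the set, and they ran from −3.34 for TDG to −3.88 for RTN4, against −4.22 for TFAM. In 4C OTX2 OE embryos TDG averaged only 0.665 TPM, under the filter's level of 1 TPM, and RTN4 (1.20 TPM) and DENR (1.23 TPM) stood near it. Their 4C WT means were 17.0 TPM for TDG, 29.8 TPM for RTN4 and 26.8 TPM for DENR. The embryo fold changes of TDG, RTN4 and DENR thus rest on levels near the pseudocount. With OTX2 overexpression in pEPSCs the 5 genes lay between −0.59 (CDV3) and −0.99 (TDG), against −1.54 for TFAM. With LEUTX overexpression RTN4 stood at −1.07 and RBM7 at 0.07, against −0.28 for TFAM. RBM7 was at 5.25 ± 6.10 TPM in 4C OTX2 OE embryos and 55.0 ± 17.0 TPM in 4C WT embryos (SD, n = 3 each).

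The wider mitochondrial genome pathway was followed in 7 lists holding 102 further entries. Of 94 entries past the filter with OTX2 overexpression in pEPSCs, 45 fell and 23 rose, where 33.5% of all genes fell and 48.9% rose. Of these, EXOG and PINK1 were under 1 TPM in every WT library. They passed the filter through OTX2 OE alone, so their ranges had to lie apart. In the knockout 22 of 93 fell and 13 rose, near the 22.3% and 14.9% of all genes. Under median-ratio scaling 17 fell and 22 rose, and under quantile normalization 19 fell and 19 rose. With LEUTX overexpression 39 of 92 fell and 27 rose, where 28.1% of all genes fell and 41.6% rose. Under median-ratio scaling 45 fell and 20 rose with LEUTX overexpression. In embryos 5 of 70 lay wholly below wild type and 26 wholly above, where 10.2% and 38.9% of all genes did so. The counts were 7 and 10 under median-ratio scaling and 7 and 14 under quantile normalization. Of the 5 below, NRF1 and MYC passed the filter through wild type alone and had to be lower. Nothing is therefore read from the count below, while the share above as deposited lies near that of all genes. Without knockout library 1, 31 entries fell and 34 rose in the knockout, where 31.4% of all genes fell and 32.1% rose. Without wild-type library 1, 2 or 3 only 10, 11 and 16 passed in all, and without knockout library 3 or 4, 22 and 23 passed. For fits without another library and for the rescaled counts no share of all genes was computed.

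Regulators of mitochondrial biogenesis, the transcription factors and sensors that act upstream of genes such as TFAM, were the list with the largest excess of lower over higher members in pEPSCs with OTX2 overexpression: 10 of 14 fell and 1 rose, where 33.5% of all genes fell and 48.9% rose; the list median was −0.47 and that of all genes 0.20. CREB1, a cAMP-responsive factor, was at 13.0 TPM in OTX2 OE and 32.3 TPM in WT cells (log2 fold change −1.25), MYC at 26.5 and 72.5 TPM in the same order (−1.41) and the deacetylase SIRT1 at 11.5 and 30.3 TPM (−1.33), with limma adjusted p of 1.17e-07, 3.38e-07 and 1.74e-06. In the knockout 3 of 14 fell and none rose, a share near the 22.3% of all genes that fell: ESRRB, an orphan nuclear receptor (−1.12, limma adjusted p = 0.00702), GABPA, an ETS factor that binds promoters of mitochondrial genes (−0.53, 0.0138) and CREB1 (−1.10, 0.0171). The GABPA and CREB1 calls were lost when any 1 wild-type library was left out (adjusted p from 0.0536 to 0.0837). With LEUTX overexpression 7 of 14 fell and 3 rose (28.1% and 41.6% of all genes), with SIRT1 at −0.61 and ESRRB at −0.82, while PPARGC1B, a coactivator of biogenesis, was at 13.3 TPM in LEUTX OE and 6.80 TPM in WT cells (0.89, limma adjusted p = 0.00038).

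In embryos 3 of 10 regulators lay wholly below wild type and none wholly above, where 10.2% and 38.9% of all genes did so. NRF1, a factor that activates the TFAM promoter in human cells, was at 0.300 to 0.685 TPM in 4C OTX2 OE libraries and 2.99 to 5.21 TPM in 4C WT libraries. MYC was at 0.108 to 0.872 TPM and 3.82 to 12.4 TPM in the same order, and YY1, a zinc finger factor, at 2.103 to 2.62 TPM and 4.86 to 9.02 TPM. NRF1 and MYC were under 1 TPM in every OTX2 OE library, so they passed the filter through wild type alone and had to differ, which leaves YY1 as the lower member whose count was not fixed by the filter. The median log2 fold change of the list was −0.18, against 0.28 over all genes. That median includes NRF1 and MYC, whose side the filter fixed, so nothing is read from it.

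In the list of mitochondrial DNA replication and repair, 5 of 16 genes fell and 5 rose with OTX2 overexpression in pEPSCs, shares no higher than the 33.5% and 48.9% of all genes. The uracil glycosylase UNG, first by adjusted p, was at 55.2 TPM in OTX2 OE and 129 TPM in WT cells (log2 fold change −1.21, limma adjusted p = 2.33e-08). In the knockout 2 of 15 fell and 3 rose (22.3% and 14.9% of all genes), led by the nuclease and helicase DNA2 (−1.12, adjusted p = 0.00762), and with LEUTX overexpression 6 of 15 fell and 3 rose (28.1% and 41.6% of all genes), led by the abasic endonuclease APEX1 (−0.29, adjusted p = 8.52e-05). In embryos 6 of 11 lay wholly above wild type and none below (38.9% and 10.2% of all genes), with APEX1 at 30.9 TPM in OTX2 OE and 18.1 TPM in WT.

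The counts of the next lists are read against the same shares of all genes, which are 33.5% lower and 48.9% higher with OTX2 overexpression in pEPSCs, 22.3% and 14.9% in the knockout, 28.1% and 41.6% with LEUTX overexpression, and 10.2% wholly below and 38.9% wholly above in embryos. Among other nucleic-acid binding proteins of mitochondria, 7 of 13 fell and 3 rose with OTX2 overexpression in pEPSCs, and GRSF1, an RNA-binding protein of mitochondrial RNA granules, was at 12.3 TPM in OTX2 OE and 41.0 TPM in WT cells (log2 fold change −1.66, limma adjusted p = 1.29e-08). In the knockout 3 of 14 fell and 3 rose, led by the prohibitin PHB (0.56, adjusted p = 0.00599), and with LEUTX overexpression 7 of 13 fell and 3 rose, led by the RNA-binding FASTKD5 (−1.15, adjusted p = 5.31e-07). In embryos 1 of 11 lay wholly below wild type and 2 above; the one below was SLIRP, which stabilises mitochondrial mRNA, at 11.04 TPM in OTX2 OE and 34.5 TPM in WT. For mitochondrial RNA processing and decay, 7 of 12 fell and 2 rose with OTX2 overexpression, among them PNPT1, the polynucleotide phosphorylase, at 20.1 TPM in OTX2 OE and 59.7 TPM in WT cells (−1.52, limma adjusted p = 1.35e-07). In the knockout 3 of 12 fell and 2 rose, with LEUTX overexpression 6 of 12 fell and 1 rose, led again by PNPT1 (−0.72, adjusted p = 5.96e-05), and in embryos 5 of 9 lay wholly above wild type and none below.

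In mitochondrial nucleotide supply, 8 of 15 fell (33.5% of all genes) and 5 rose (48.9%) with OTX2 overexpression, led by RRM2, a subunit of ribonucleotide reductase, at 78.5 TPM in OTX2 OE and 199.6 TPM in WT cells (log2 fold change −1.34, limma adjusted p = 9.41e-09). In the knockout 5 of 15 fell and 1 rose, which was the pyrimidine carrier SLC25A33 (0.63, adjusted p = 0.00607). With LEUTX overexpression 4 of 15 fell and 7 rose, led by SUCLA2, a succinyl-CoA ligase subunit, at 246 TPM in LEUTX OE and 117 TPM in WT cells (1.06, adjusted p = 4.2e-08), and in embryos 5 of 12 lay wholly above wild type and none below, near the 38.9% of all genes above. Mitochondrial proteases had 4 of 11 lower and 2 higher with OTX2 overexpression, led by the rhomboid protease PARL (−0.87, adjusted p = 1.22e-07), 1 lower and 2 higher in the knockout, 4 lower and 5 higher with LEUTX overexpression, led by the AAA protease subunit SPG7 (0.64, adjusted p = 7.41e-06), and in embryos 1 of 7 wholly below and 3 above; these embryo shares too lie near the 10.2% and 38.9% of all genes.

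Genes of mitochondrial fusion, fission and turnover moved both ways. With OTX2 overexpression in pEPSCs 4 of 13 fell and 5 rose, near or under the 33.5% and 48.9% of all genes. The 5 include the mitophagy kinase PINK1, at 10.1 TPM in OTX2 OE and 0.427 TPM in WT cells. PINK1 passed the filter through OTX2 OE alone, so its ranges had to lie apart. Of the others the mitophagy receptor BNIP3 came first, at 186 TPM in OTX2 OE and 69.5 TPM in WT cells (log2 fold change 1.41, limma adjusted p = 2.07e-08). In the knockout 5 of 12 fell and 2 rose (22.3% and 14.9% of all genes), led by the mitophagy receptor BNIP3L (−1.05, adjusted p = 0.00118), and with LEUTX overexpression 5 of 12 fell and 5 rose (28.1% and 41.6% of all genes), led by another mitophagy receptor, FUNDC1 (0.63, adjusted p = 1.63e-06). In embryos 5 of 10 lay wholly above wild type and none below (38.9% and 10.2% of all genes), with FBXL4, a regulator of mitophagy, at 12.4 TPM in OTX2 OE and 6.32 TPM in WT.

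**Figure D4:**
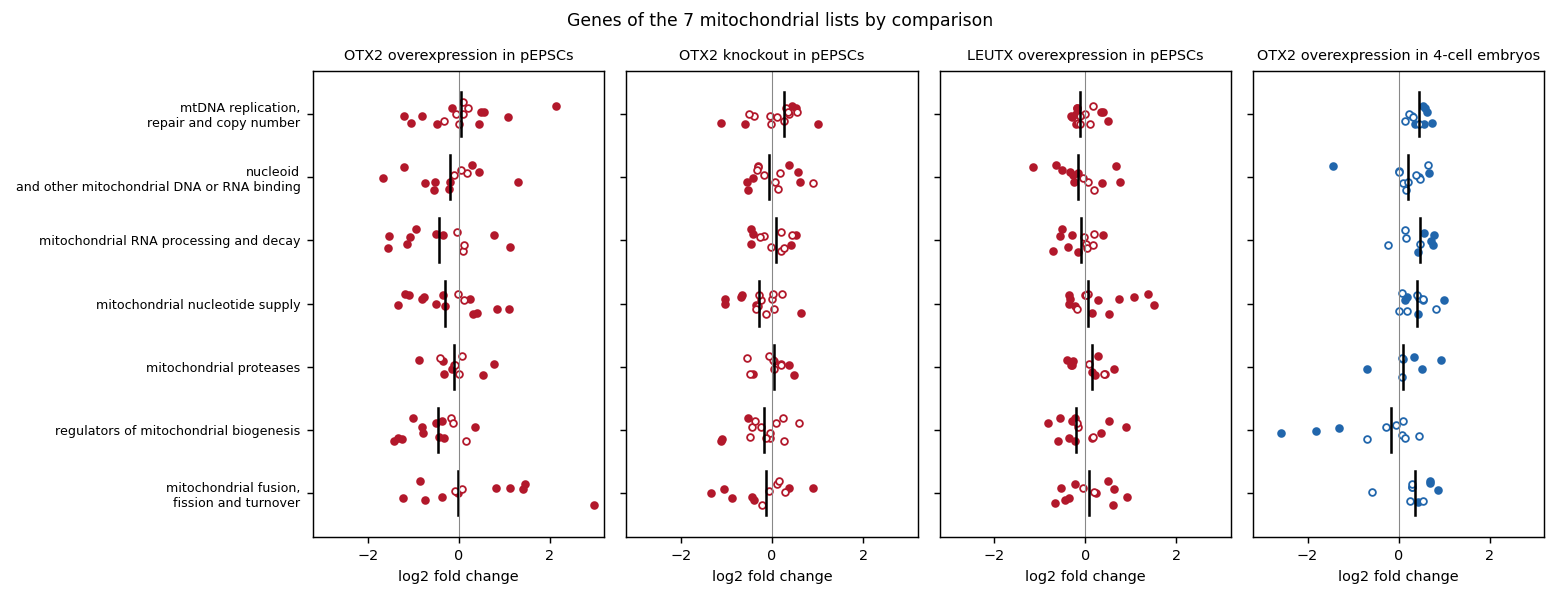
Log2 fold change of each gene past the filter in the 7 mitochondrial lists, by comparison; filled points passed an adjusted p of 0.05 in pEPSCs or, in embryos, had groups that do not overlap, and vertical bars mark list medians. The regulators of biogenesis have medians of −0.47 with OTX2 overexpression in pEPSCs and −0.18 in embryos, where the other lists have medians above 0. The embryo median of the regulators includes NRF1 and MYC, which passed the filter through wild type alone.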

How the data were processed

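The deposited tables hold TPM computed by the authors for 18 of the 35 samples; the other 17 samples were not analysed here. Per the submitters' processing notes the tools included STAR 2.7.3, StringTie 2.1.4 and featureCounts 2.0.0, with no role given, and the build Sscrofa11.1. Each column sums to 997004 to 998040 TPM, and no gene has a mean below 1 TPM over its 6 libraries. Only the TPM columns were used. Groups came from sample titles; knockout columns are numbered 1, 3 and 4 and could be tied only to their group.

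Each table was fitted alone on log2(TPM + 1) by limma 3.58.1 in R 4.3.3, using empirical Bayes with a trend and the robust option (statmod 1.5.0); genes needed 1 TPM or more in 3 or more libraries. Benjamini-Hochberg adjustment ran over all genes of a table at a threshold of 0.05, and every adjusted p in the text is from limma. The script was tested on simulated data. In embryos the text counts genes whose groups do not overlap. The replicate numbers did not pair libraries (see the closing section). The members, lists and rules were chosen with earlier results of these data known. Of each list the text names the first gene by adjusted p (in embryos by fold; BNIP3 beside PINK1, chosen after its values were seen) or none, and for the regulators up to 3; TFB1M is counted only among the 10 genes. Tables and plots used Python 3.11.15, pandas 2.3.3, numpy 2.4.6 and matplotlib 3.10.9.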

Additional observations from a re-analysis of the deposited data

Results flagged for a closer look

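TFB1M was picked out because OTX2 overexpression went with opposite directions in the embryos and in the stem cells. In 4-cell embryos its log2 fold change was 0.80, with all 3 OTX2 OE libraries above all 3 WT libraries, and in pEPSCs it was −0.62, with all 3 OTX2 OE libraries below all 3 WT libraries. Of all genes 38.9% lay wholly above wild type in embryos and 34.2% wholly below in pEPSCs. The share of genes that did both was not computed, and the split was not particular to TFB1M. List genes such as UNG (−1.21 in pEPSCs and 0.58 in embryos), REXO2 (−1.56 and 0.71) and SUCLA2 (−1.17 and 0.99) split likewise. YY1 was lower in both (−0.78 and −1.32). MTERF3 stood at −0.88 in pEPSCs and at 0.88 in embryos, where its ranges overlapped. The medians of all genes were 0.28 in embryos and 0.20 in pEPSCs, and the embryo value of TFB1M was smaller under median-ratio scaling. The difference between the effects was not tested, since the embryo comparison led to the choice of the genes.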

How the results depend on the processing

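Of 380 refits of the 10 genes in the pEPSC comparisons, 330 kept their direction and side of the threshold, 19 lost a call, 19 gained one and 12 changed sign. Every sign change was of a gene that did not pass with all libraries. In the knockout TFB1M and TFB2M moved to 0.036 and 0.058 under median-ratio scaling and to 0.032 and 0.089 under quantile normalization, TFB2M to 0.067 in the joint fit without knockout library 1. With each library left out TFB2M ran from −0.18 to 0.067 and LONP1 from −0.042 to 0.34. With LEUTX overexpression POLG moved to −0.081 and SSBP1 to −0.00325 under median-ratio scaling, POLG to −0.15 and POLG2 to −0.090 under quantile normalization, and POLG ran from −0.023 to 0.070 with each library left out. The knockout count of 1 gene became 3 under median-ratio scaling, quantile normalization and the fit over 12 libraries, 6 in that fit without knockout library 1 (an alternative added after seeing the data), and 0 to 5 with each library left out. The LEUTX count of 5 became 1 in the fit over 12 libraries and 3 to 5 with each library left out. The embryo count of 3 became 2 to 5 with each library left out. The list counts became 67 of 92 in the knockout without library 1 in the joint fit, against 35, and 10 to 65 with each library left out. They became 43 with LEUTX overexpression in the fit over 12 libraries, against 66, and 17 in embryos under median-ratio scaling, against 31. The cause of these changes was not tested. Among these alternatives the share of all genes called was computed only for the separate knockout fit without library 1 (63.5%). The other counts are therefore not read as results about the set. With the replicate number as a block, 9 genes passed with OTX2 overexpression and 4 with LEUTX overexpression, and 4 of the 8 embryo genes lay one way in all 3 numbered pairs. Same-numbered libraries deviated together with correlations of only −0.21 to 0.07, so the numbers were not taken as pairs, and no paired analysis was possible for the knockout because its columns carry other numbers. Of 997 refits of the named list genes none changed sign, 45 lost a call and 23 moved by more than the spread. TPM carries no read depth, so the precision of levels near 1 TPM is unknown. Such levels include TFB2M and LONP1 in embryos, and TFAM in 4C OTX2 OE libraries 2 and 3.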
